A study of Arabidopsis thaliana with 10 samples.

Results

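The genes described here were clustered with histone genes in mRNA-Seq of the Arabidopsis shoot meristem but are not histones themselves. They were chosen by the deposited *k*-means cluster number, which the authors computed from the levels of each gene over all libraries. Of 33851 genes listed, 25883 had 1 of 1000 clusters, and 52 were in the cluster in question, called the histone cluster below. Leaving out 11 genes annotated as histones, and *POLA1*, *POLD2* and *CDKB1;1*, which belong to larger sets of replication and mitosis genes, left 38 genes. The libraries were made from meristem-enriched shoot tissue of *Arabidopsis thaliana* seedlings, with leaf primordia included. There were 5 genotypes, each collected at 8 and at 15 days, with 1 pooled library for each of the 10 conditions. The genotypes were the single mutant *clv3-2*, heterozygous *jba-1D/+*, the double *jba-1D/+ er-20*, the triple *jba-1D/+ er-20 clv3-2* and wild-type Col-0. The *clv3-2* mutation affects a peptide signal that restricts stem cells, *jba-1D* raises the microRNA gene *MIR166g*, which targets class III HD-ZIP transcripts, and *er-20* affects the receptor kinase ERECTA. None of the libraries carried *er-20* alone. The 10 columns of values per library have headings that name no genotype or age and were not used here, so levels, directions of change, depth and the check of the mutated genes were not analysed here. What could be measured is which genes the clustering put together, and what these genes share in function, position, structure and promoter sequence. With 1 library per condition, the data give no replicate error for a cluster assignment.

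In dividing plant cells the retinoblastoma homolog RBR1 holds back the E2F transcription factors until cyclin-dependent kinases release them. Free E2F then activates the genes that copy DNA and chromatin, many of which carry E2F sites close to their start. Genes used later, at mitosis, often carry MSA elements that are bound by MYB3R factors. Core histones are made while DNA is copied, and recombination proteins repair the breaks that arise at stalled replication forks.

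The following stretches are shown because they lead up to *RBR1* and *ASY3*, the only members with a full E2F site, and to *TSK* and *MET1*, which hold its core at or just after their start. They run up to the base before the annotated start, with matches to the E2F, site II and MSA motifs spelled out further on in capitals. All were read from the TAIR10.1 genome on the strand of the gene. The *RBR1* stretch is chr3:3919360-3919462 (reverse strand), the *ASY3* stretch chr2:19304272-19304521 (reverse), the *TSK* stretch chr3:6453202-6453302 (reverse) and the *MET1* stretch chr5:19932054-19932113 (forward). The core of *MET1* begins in the last 3 bases of its stretch and is not in capitals. The cores of *TSK* all lie outside its stretch. The stretches of *RBR1* and *TSK* were kept short so as not to run into the neighboring protein-coding gene.
RBR1: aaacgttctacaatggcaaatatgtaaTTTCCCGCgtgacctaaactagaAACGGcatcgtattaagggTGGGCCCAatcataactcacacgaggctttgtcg
ASY3: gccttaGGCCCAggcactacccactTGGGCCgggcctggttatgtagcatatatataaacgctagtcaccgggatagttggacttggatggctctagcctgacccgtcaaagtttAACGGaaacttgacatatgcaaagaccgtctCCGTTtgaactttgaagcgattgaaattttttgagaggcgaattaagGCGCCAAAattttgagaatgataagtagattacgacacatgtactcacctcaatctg
TSK: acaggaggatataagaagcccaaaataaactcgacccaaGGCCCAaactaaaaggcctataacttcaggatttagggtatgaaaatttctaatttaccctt
MET1: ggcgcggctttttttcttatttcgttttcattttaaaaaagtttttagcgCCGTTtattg

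Of the 38 genes, 37 were protein-coding and 1, *AT5G15022*, was a long non-coding RNA gene. By roles that were set after the members had been read, and not taken from the deposited annotation alone, 3 act in the cell cycle or in copying chromatin. *RBR1* (*AT3G12280*) encodes the retinoblastoma homolog, *MET1* (*AT5G49160*) the methyltransferase that maintains CG methylation on new DNA, and *TSK* (*AT3G18730*, also *BRU1*) a repeat protein needed for meristem organization and for the inheritance of silent chromatin. A further 7 act in recombination or repair, or carry a domain known from repair proteins. *RAD54* (*AT3G19210*) encodes a DNA-dependent ATPase of homologous recombination and *FANCM* (*AT1G35530*) a helicase that limits meiotic crossovers. *MSH4* (*AT4G17380*) acts in forming meiotic crossovers and *ASY3* (*AT2G46980*) in building the meiotic chromosome axis. *AT1G67180* has RING and BRCT domains, and *AT4G02110*, placed here tentatively, is annotated only as a transcription coactivator. Thus 10 of the 38 genes fell in these groups and 28 did not.

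The cluster had been labelled mitotic, a label whose basis over all 52 genes was not re-examined here. Of 38 genes of mitosis and cytokinesis, 1 (*CDKB1;1*) was in it, and of 38 genes of DNA replication 2 (*POLA1*, *POLD2*), both shares above the 0.201% of all clustered genes. All of these were left out of the members by name, so the members hold no gene of either list by construction. The members are called here by the histone genes they were clustered with, a choice of name that says nothing against the label.

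The other 28 genes covered a range of functions. Signaling and transcription accounted for 6 genes, which were *MGP*, a zinc finger gene known from root patterning, the Dof-type zinc finger gene *AT2G28510*, *TOPP4*, a catalytic subunit of protein phosphatase 1, the receptor-like kinase gene *PERK15*, *NPY4*, of a family that acts in auxin-dependent organ formation, and the *SAUR*-like gene *AT4G31320*. Trafficking, the cytoskeleton and the nuclear envelope accounted for 5, namely the small GTPase gene *RABA3*, the retromer gene *VPS35A*, the profilin gene *PRF3*, *WPP2* of the nuclear envelope and the dynein light chain-like gene *AT1G23220*. Protein folding and turnover accounted for 4, the proteasome ATPase gene *RPT1A*, *PUX4* with a UBX domain, the disulfide isomerase gene *UNE5* and *AT3G04980* with a DNAJ domain. Another 5 belonged to plastids and carbohydrates. These were *PDV1* of the plastid division ring, the starch synthase gene *SS2*, the starch phosphatase gene *LSF2*, the rhamnose synthesis gene *RHM1* and the O-fucosyltransferase gene *AT5G65470*. The last 8 had no named role and included *AT5G15022*, *AT1G03820*, *AT1G58460*, *AT5G06590*, *AT5G60840* and *AT1G54385*, an ARM repeat gene. RefSeq names *AT4G27510* a 2-isopropylmalate synthase and *AT5G38690* a zinc finger protein, while the deposited table leaves both without a function.

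The members were spread over the genome. Chromosome 1 held 12, chromosome 5 held 9, chromosomes 2 and 3 held 6 each and chromosome 4 held 5. The only members with starts under 100 kb apart were *AT1G03820* and *MGP*, which are separated by 6553 bases and 1 gene on chromosome 1. Of the 75 genes directly next to a member, 58 had a cluster and 0 were in the histone cluster, against 0.201% of all clustered genes. At that share a count of 0 is near the background, so it says nothing particular about these loci.

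The search for an E2F site used the 4 versions TTTCCCGC, TTTCGCGC, TTTGCCGC and TTTGGCGC on either strand, from 250 bases before to 50 bases after the annotated start. Of the 37 protein-coding members, 2 held one, against 1.83% of the 23573 clustered protein-coding genes. These were *RBR1* itself, with TTTCCCGC beginning 76 bases before the start, and *ASY3*, with TTTGGCGC on the opposite strand beginning 57 bases before it, within a lncRNA gene (*AT2G09770*) that is annotated across the *ASY3* promoter on the other strand. Among the 11 histone genes of the cluster 2 promoters held the site. In the 2 clusters with the most replication genes the share was larger, with 14 of 51 promoters in cluster 321 and 10 of 45 in cluster 11. In cluster 564, which holds B-type cyclins, it was 0 of 45. These counts describe letters in a window and are no test, and a promoter without the letters may still be bound. Clusters 321 and 11 held the most genes of the replication list, and cluster 564 the most of the mitosis list, which is why they were set beside the members.

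Without its flanking letters, the E2F core of 6 bases (each site version less its first and last letter, so that every full site also counts) was found in 7 of the 37 members, against 15.7% of all clustered protein-coding genes. The *RBR1* and *ASY3* sites were 2 of these. *TSK* held TTGGCG at 6 and at 38 bases into the gene, and a further core 225 bases before the start that lies inside its neighbor *AT3G18740*. *MET1* held TTGCCG across its start, beginning 3 bases before it, and *AT1G67180* held TTCCCG 34 bases into the gene. The remaining pair, *AT5G38690* and *AT4G27510*, held the core 49 and 78 bases before the start. By role, 5 of the 10 genes of the cell cycle, recombination and repair held the core, as did 2 of the other 27 protein-coding members. Of those 5, *MET1* held it across the start and *AT1G67180* only after it. The only core of *TSK* before its start lay inside *AT3G18740*. In the 250 bases before the start only, the core was in 5 of the 37 members, against 12.3% of all clustered protein-coding genes. Of those 10 genes, *RAD54*, *FANCM*, *MSH4* and *AT4G02110* were among those that held no E2F core in this window. The split by role was drawn after the members were known and is a description.

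The core stretches of *AT5G38690* (chr5:15483267-15483326, reverse strand) and *AT4G27510* (chr4:13749177-13749236, reverse strand) are shown with the core in capitals, since neither gene has a function in the deposited table.
AT5G38690: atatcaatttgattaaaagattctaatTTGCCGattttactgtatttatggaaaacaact
AT4G27510: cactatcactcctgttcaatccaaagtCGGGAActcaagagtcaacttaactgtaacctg

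**Figure D1:**
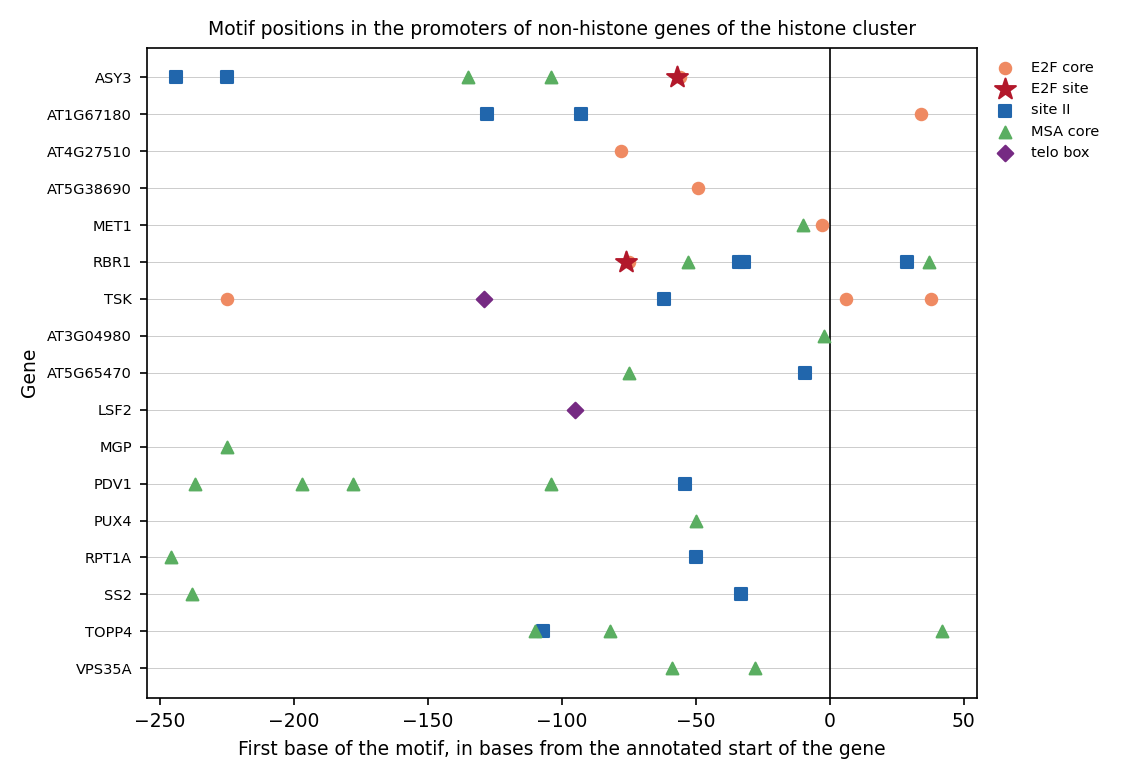
Motif positions in the 17 promoters of non-histone genes of the histone cluster that held any. The horizontal axis is the distance in bases of the first base of a motif from the annotated start (vertical line), each row is a gene, and each symbol is a match on either strand. The 7 genes with an E2F core are the upper rows, and the 2 stars mark the full E2F sites of *ASY3* and *RBR1* at 57 and 76 bases before the start.

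The other motifs are described next, each beside its background. Site II (TGGGCC), known from promoters of growing and dividing cells, was found in 9 of 37 promoters, against 17.0% of all. *RBR1* held it in both directions over shared letters 34 and 32 bases before the start and once more 29 bases into the gene, and *RPT1A* held it 50 bases before the start. The MSA core (AACGG) was found in 12 of 37, against 25.2% of all. It lay 10 bases before the start of *MET1*, 53 bases before that of *RBR1*, and at 4 places before that of *PDV1*, of which 3 were inside the neighboring gene *AT5G53270*. Further MSA cores lay 59 and 28 bases before the start of *VPS35A*, at 3 places around that of *TOPP4* and 225 bases before that of *MGP*. The telo box (AAACCCTA) was found in 2 of 37, *LSF2* and *TSK*, against 5.69% of all, and the match of *TSK* again lay inside *AT3G18740*. In contrast, the MSA core was found in 8 of the 11 histone promoters of the same cluster and in 28 of the 45 promoters of cluster 564. The core was thus in 32.4% of the promoters of non-histone members, against 72.7% of those of the histone genes of their cluster, a difference that was not tested. *RBR1* and *ASY3* each held 3 of the 4 kinds of motif (E2F site, site II, MSA core, telo box), the most of any member, and 20 members held no motif at all, the E2F core included. The shares of all promoters with no motif or with 3 kinds were not computed, so neither count is read as particular to the members.

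**Figure D2:**
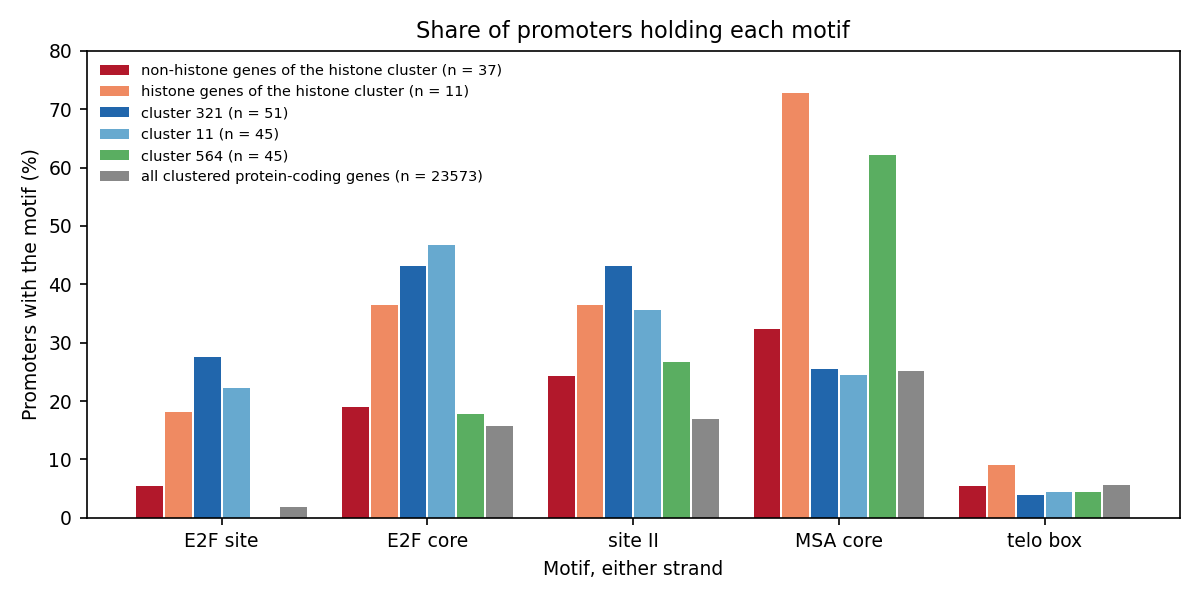
Percent of promoters that hold each motif on either strand, from 250 bases before to 50 after the start, in the non-histone genes of the histone cluster (37 promoters), the histone genes of that cluster, clusters 321, 11 and 564 and all clustered protein-coding genes. The non-histone genes were at 5.41% for the E2F site and 32.4% for the MSA core, against 27.5% for the E2F site in cluster 321 and 72.7% for the MSA core in the histone genes.

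Genes whose products work with those of the members were in other clusters. For 17 members or pairs of members, 88 genes of the same complex, pathway or family were listed from general knowledge. Of these 87 had a cluster and 0 were in the histone cluster, where 0.201% of all clustered genes lie, so that a count of 0 is near what the background share gives. The E2F and DP genes, whose proteins bind RBR1, were in 5 clusters, *E2FA* in 47, *E2FB* in 200, *E2FC* in 58, *DPA* in 87 and *DPB* in 601. The partners of MET1 in keeping CG methylation were likewise apart, *VIM1* in 88, *VIM2* in 221, *VIM3* in 362 and *DDM1* in 804. Chromatin assembly genes, set beside *TSK*, were in 3 clusters, *FAS1* in 503, *FAS2* in 706 and *MSI1* in 411.

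Among recombination genes, the 12 listed beside *RAD54* were in 12 different clusters. *BRCA1* was in 503, *BARD1* in 11, *BRCA2A* in 321 and *BRCA2B* in 804, and the meiotic recombinase gene *DMC1* was in 823. *MSH4* was apart from *MSH5*, which forms a heterodimer with it and was in cluster 460. Levels were not analysed here, so whether these or the other meiotic genes were clustered on low values is not known. *FANCM* was apart from its cofactors *MHF1* (99) and *MHF2* (98), and *ASY3* from the axis gene *ASY1* (416) and the cohesin gene *SYN1* (195). The same held for members with other roles. *RPT1A* was apart from the 8 other proteasome ATPase genes listed, which were in 8 clusters, *VPS35A* from 5 other retromer genes, *PDV1* from *PDV2* (422), *ARC6* (51) and *FTSZ1* (533), and *TOPP4* from 7 other phosphatase genes. In none of the 17 comparisons did any partners listed for the same member share a cluster with each other. How often genes of 1 complex or pathway share a cluster in these data was not measured. In the replication list, *MCM3*, *MCM4*, *MCM6* and *MCM7* were together in cluster 321, while *MCM2* was in 182 and *MCM5* and *MCM10* were in 11.

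Lists of related pathways each had 1 or 2 genes in the histone cluster, a larger share than that of all clustered genes. Of 15 genes of chromatin copying and DNA methylation 2 were in the histone cluster (*MET1*, *TSK*), of 26 genes of repair, cohesion and condensation 2 (*RAD54* among them), and of 9 genes of the E2F and RB pathway 1 (*RBR1*), against 0.201% of all clustered genes. The lists were written with part of this membership known, and the counts support nothing beyond the membership itself. Of the 38 DNA replication genes, 2 were in the histone cluster, against 9 in cluster 321 and 7 in cluster 11, and of the 38 genes of mitosis and cytokinesis 1 was in the histone cluster, against 7 in cluster 564. Of the markers of the meristem (7 genes, among them *STM*, *CLV3* and *WUS*), leaf (5) and flower (3), 0 were in the histone cluster. Whether these tissues are present in a library could not be read from a cluster number.

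The genes of recombination, repair and the cell cycle were long and had many exons. The longest transcripts of these 10 genes had a median of 3700 nucleotides and 15 exons, against 1640 nucleotides and 4 exons for all clustered protein-coding genes. Genes of the same roles outside the cluster were not measured, so this length is not read as particular to the members. *MSH4* had 24 exons, *FANCM* 23 and *RAD54* 21, and *MET1* (chr5:19932114-19938470) had the longest transcript, of 5062 nucleotides in 12 exons. Its protein has 1534 residues, and that of RBR1 (chr3:3913349-3919359, reverse strand, 18 exons) has 1013. Over all 37 protein-coding members the medians were 1980 nucleotides and 5 exons. The shortest was *PRF3*, with 396 nucleotides. *VPS35A*, with 21 exons, was the one gene outside these roles with more than 15.

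**Figure D3:**
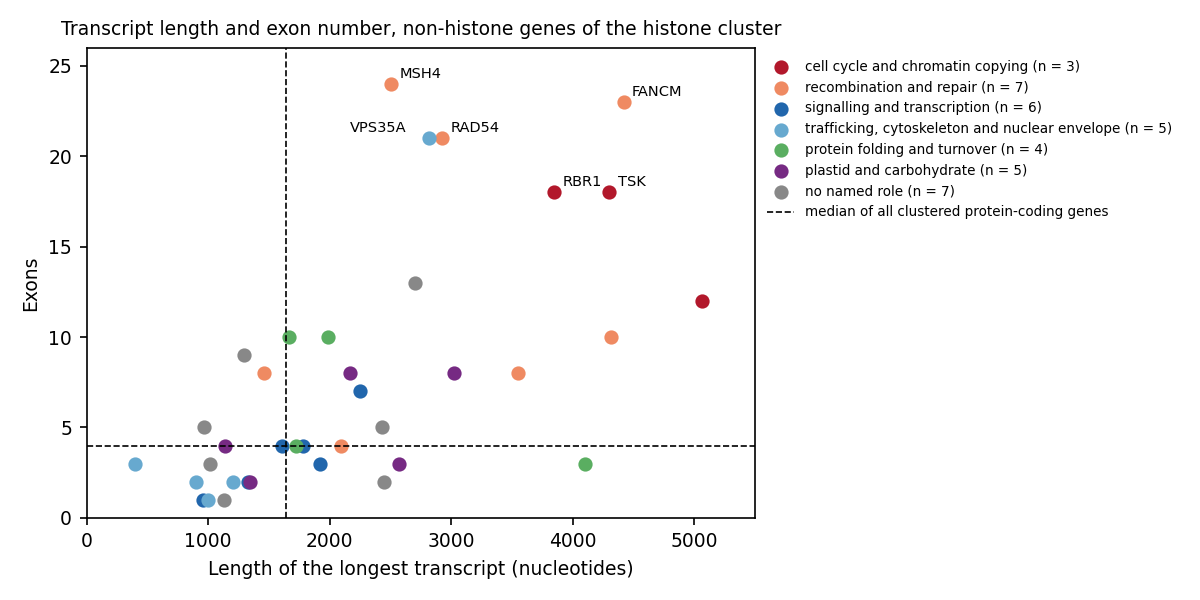
Length of the longest annotated transcript in nucleotides (horizontal axis) and its number of exons (vertical axis) for the 37 protein-coding non-histone genes of the histone cluster, colored by role. Dashed lines are the medians of all clustered protein-coding genes, 1640 nucleotides and 4 exons, and most genes of the cell cycle, recombination and repair lie above and to the right of both.

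Several members share their locus with another gene. In TAIR10.1, 13 of the 38 overlapped another annotated gene, 12 of them a gene on the opposite strand. The share of all genes with such an overlap was not computed, so the count is not read as particular to the members. Among these were *RBR1* with *PRMT3* (*AT3G12270*, cluster 868), *RPT1A* with *SRF6* (cluster 57), *RHM1* with *TPS1* (cluster 209) and *MSH4* with *AT4G17390* (cluster 924). The lncRNA gene *AT5G15022* overlapped 4 snoRNA genes on its own strand. Library preparation used a TruSeq-RNA kit, and whether reads were counted by strand is not stated in these sources. Without strand, reads from the overlap cannot be told apart between both genes, and the effect on a cluster assignment was not tested. Where an overlapping gene had a cluster, it was never the histone cluster, which holds 0.201% of all clustered genes, so this absence is near the background. No member transcript had an alignment of at least 51 nucleotides, the read length, with 95% identity over its whole length to a gene elsewhere in the genome. A matching stretch inside a longer alignment of lower identity would be missed by this search. Whether reads of the 38 genes are shared with related genes was therefore not settled.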

How the data were processed

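mRNA-Seq libraries of 5 genotypes at 8 and 15 days were analysed through 1 deposited table of 33851 genes. Reads of 51 nucleotides had been trimmed by the authors (Trimmomatic 0.32) and placed on TAIR10 (TopHat2 2.0.12, using Bowtie2 2.1.0). Levels came from Cuffdiff 2.2.1, with versions per the submitters' processing notes, and genes were grouped with Gene Cluster by *k*-means (*k* = 1000, centered correlation over all libraries). The deposited cluster numbers are labels without unit or direction. The 10 value columns carry headings that match no sample and were not used, so the planned folds, profile correlations and their alternatives were not run. Depth was not analysed here. The members and gene lists were chosen with earlier results of these data known. The partner genes, the roles and the comparison with clusters 321, 11 and 564 were set after the members had been read. Every member was named except 1, which is not reported here, and the parts of the naming rule that need levels were not applied. All 38 members matched a TAIR10.1 locus, as did 25171 of the 25883 clustered genes. Positions, transcripts and sequences are from RefSeq TAIR10.1, because the deposited table gives gene IDs without positions. Promoters ran from 250 bases before to 50 after the gene start. Copies were sought with BLAST 2.17.0 (alignments of at least 51 nucleotides with 95% identity over their whole length). Python 3.11.15, pandas 2.3.3, numpy 2.4.6 and matplotlib 3.10.9 were used, and the motif search was checked on simulated sequences with planted motifs.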

Additional observations from a re-analysis of the deposited data

How the results depend on the processing

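Motif counts in the 37 promoters were recomputed in the 250 bases before the start only, and, as alternatives chosen after seeing the data, in 500 bases before the start, with *POLA1*, *POLD2* and *CDKB1;1* added back, and against all 26691 listed protein-coding genes as background. Of 17 recomputed values, 16 stayed within 1.5 times of those reported, where counts of 3 members in place of 2 were at that limit. The exception was the E2F site without its flanking letters, which was held by 7 members in place of 2, with a background of 15.7% in place of 1.83% since a shorter motif occurs more often. Member counts were compared as such, although the background changes with the window. For the MSA core it was 34.7% in 500 bases before the start, against 25.2% in the main window. No paired analysis was possible because the value columns were not used and no result comes from a test between libraries. For the same reason no library was left out in turn. Alternatives planned for folds, medians and profile correlations were not run.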
